A study of Mus musculus with 7 samples.

Results

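The Cyp2c gene cluster lies on mouse chromosome 19, where genes for related cytochrome P450 enzymes stand side by side. It was taken here as the 10 genes Cyp2c55, Cyp2c29, Cyp2c38, Cyp2c39, Cyp2c67, Cyp2c40, Cyp2c37, Cyp2c54, Cyp2c50 and Cyp2c70, with 100 kb added on each side of the first and the last of them (mm9, chromosome 19, 38981509 to 40361823, 1.38 Mb). All peaks of either deposited list that overlap this window were its members, which gave 17 of 68667 CTCF peaks and 23 of 68656 Rad21 peaks. Cyp2c55, Cyp2c29, Cyp2c39, Cyp2c37 and Cyp2c50 are read from the plus strand and the other 5 from the minus strand, and 4 further genes of the family, Cyp2c65, Cyp2c66, Cyp2c68 and Cyp2c69, lie among them. The samples were livers of female Crl:CD1(ICR) mice, an outbred stock, at 8 weeks of age, with no treatment and no genetic change. Chromatin was crosslinked, and fragments bound by CTCF (4 libraries) or by Rad21, a subunit of cohesin (3 libraries), were pulled down and sequenced. The authors pooled the libraries of each antibody before calling peaks, so every value below is 1 number for a pool, with no spread between mice, and no difference was tested. Read depth is not part of the lists, and a stretch without a listed peak was below the caller's threshold, which is not the same as unbound. Liver holds several cell types, and the lists cannot tell binding in a few cells from weak binding in many. Male liver was not analysed here.

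Cohesin forms loops by extruding chromatin, and CTCF, bound to a non-palindromic motif, can halt it. Peaks where both bind are called cohesin-and-CTCF (CAC) sites, CTCF peaks without cohesin are Lone CTCF sites, and cohesin-non-CTCF (CNC) sites are often found at enhancers and promoters active in a tissue. The Cyp2c enzymes oxidise drugs, steroids and fatty acids such as arachidonic acid, and several of their genes differ between the sexes under the control of growth hormone. Gene copies in such clusters arise by duplication, and copies that are nearly identical leave reads that cannot be placed uniquely.

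The CTCF motif was learned from strong CTCF peaks on other chromosomes. A peak was said to hold it where the best match, searched up to 100 bp to each side of the summit, reached 14.3 bits, as 1% of windows taken beside peaks did. In the window, 4 CTCF peaks held it, all of them outside the span of the genes: 2 in the left flank and 2 in the right. These 4 sites are shown because they carry the motif at the edges of the cluster, each read 5′ to 3′ along the motif with its 20 bases in capitals.
Tbc1d12 intron, chr19:38990345-38990404, minus strand: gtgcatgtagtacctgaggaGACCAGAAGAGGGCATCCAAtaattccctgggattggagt
24.9 kb before Cyp2c55, chr19:39056632-39056691, plus strand: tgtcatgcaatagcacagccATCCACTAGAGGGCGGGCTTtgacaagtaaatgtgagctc
Pdlim1 intron, chr19:40300081-40300140, minus strand: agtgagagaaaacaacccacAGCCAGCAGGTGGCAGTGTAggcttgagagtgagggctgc
Pdlim1 intron, chr19:40306440-40306499, minus strand: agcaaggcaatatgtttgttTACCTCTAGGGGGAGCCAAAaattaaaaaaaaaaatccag
The motif nearest to Cyp2c55 read along the plus strand and both motifs beyond Cyp2c70 along the minus strand, so that the innermost motif on each side pointed into the cluster. The motif in Tbc1d12, the outermost on the left, pointed away from it.

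Between the first and the last gene 0 of 6 CTCF peaks held the motif, too few to set against the 41.7% of CTCF peaks with it on odd-numbered autosomes. The best matches at 3 CAC sites there stood below the 1% threshold but above 8.59 bits, which 5% of such windows passed, and they are shown as the nearest to a motif among the genes, again with the match in capitals.
Cyp2c55 intron, 11.3 bits, chr19:39102208-39102267, plus strand: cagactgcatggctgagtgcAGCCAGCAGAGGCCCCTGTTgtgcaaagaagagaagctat
Between Cyp2c69 and Cyp2c37, 12.4 bits, chr19:40004693-40004752, minus strand: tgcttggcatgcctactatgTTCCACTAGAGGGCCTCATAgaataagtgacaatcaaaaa
Upstream of Cyp2c37, 11.3 bits, chr19:40048778-40048837, minus strand: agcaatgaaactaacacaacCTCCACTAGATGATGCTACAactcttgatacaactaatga
Their strands followed the same order, plus at the Cyp2c55 end and minus at the 2 sites before Cyp2c37.

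Of the CTCF peaks in the window 14 of 17 were CAC sites (82.4%, 95% Wilson interval 59.0 to 93.8%), beside 73.7% of the whole list. The Rad21 list had 9 CNC sites among 23 peaks (39.1%, 22.2 to 59.2%), beside 26.4% of the whole list. These intervals cover counting error only, and each includes the value of the whole list. The motif was held by 4 of 17 CTCF peaks (23.5%, 9.56 to 47.3%) beside the 41.7% on odd-numbered autosomes, which took no part in learning it. None of the 9 CNC sites held it, with best scores between -3.74 and 5.12 bits, and 2.27% of CNC sites on odd-numbered autosomes did. A share of 0 of 9 allows up to 29.9% at the upper Wilson bound.

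The peaks were unevenly spread. From the first to the last gene, 1.18 Mb, there were 6 CTCF peaks (5.08 per Mb) and 10 Rad21 peaks (8.47 per Mb). Chromosome 19 as a whole had 38.5 CTCF and 40.0 Rad21 peaks per Mb of known sequence, and the autosomes had 28.0 and 28.1. The left flank of 100 kb held 3 CTCF and 6 Rad21 peaks, and the right flank held 8 of each, with 1 Rad21 peak counted both there and in the gene span because it crosses the start of Cyp2c70. Among the genes 4 CTCF peaks were CAC and 2 Lone CTCF, while 5 Rad21 peaks were CAC and 5 CNC.

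**Figure D1:**
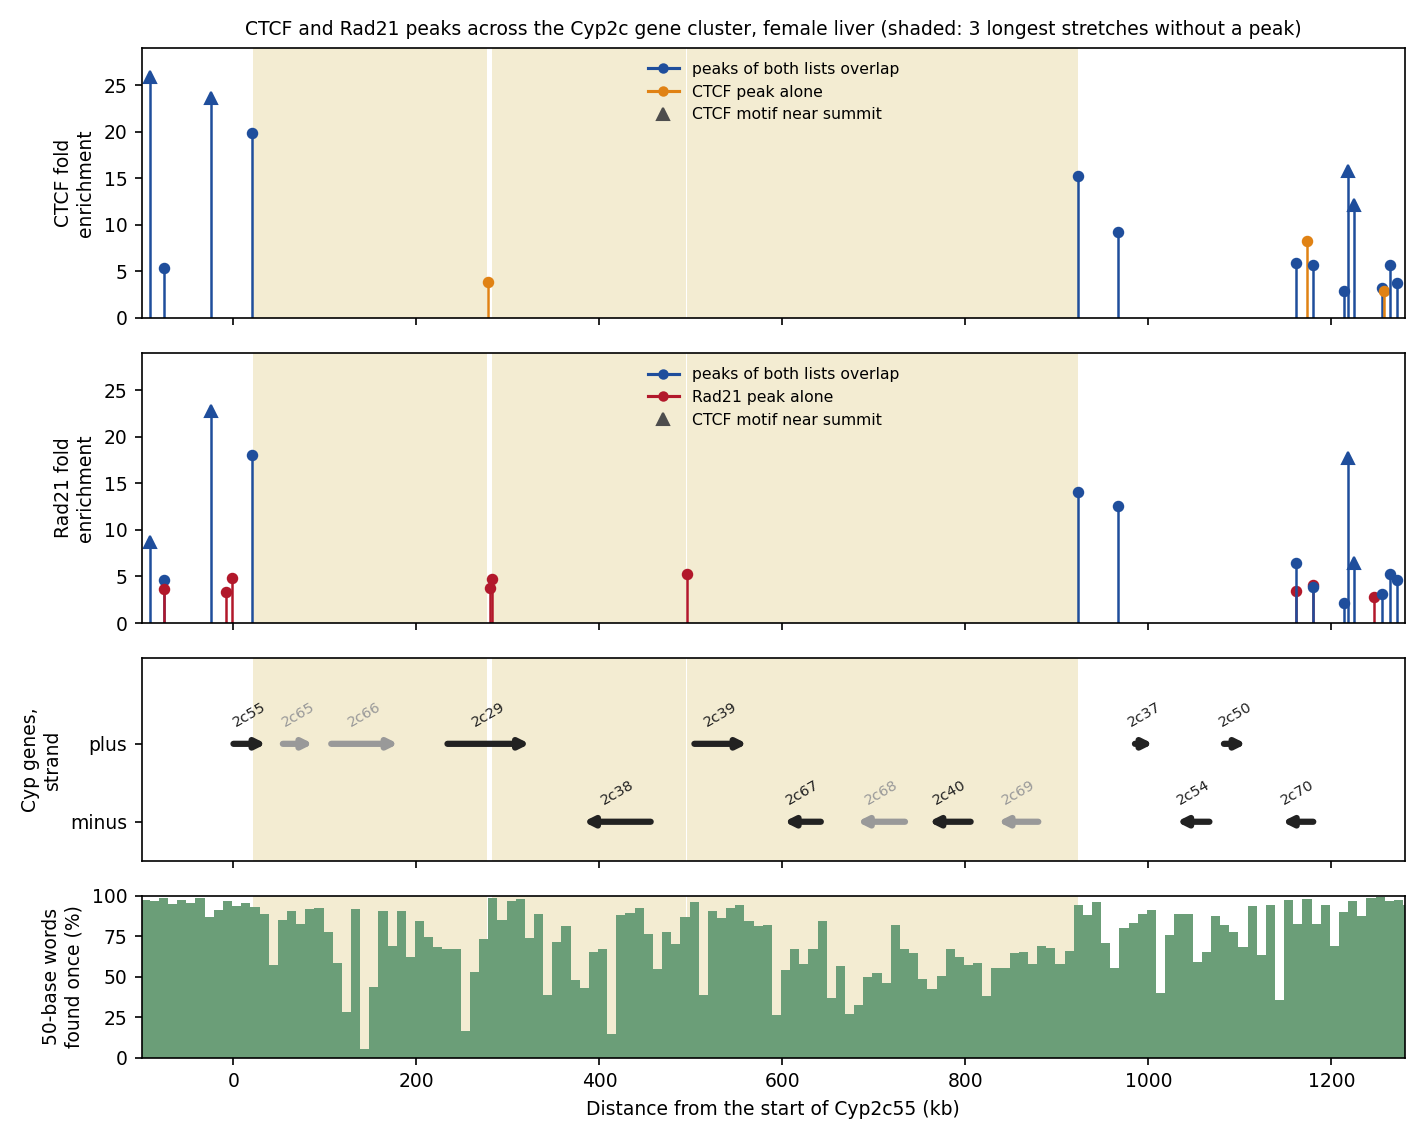
Fold enrichment of each CTCF peak (top) and Rad21 peak (second row), the Cyp2c genes by strand (below them, black for the 10 members and grey for the others, arrows pointing with transcription) and the percent of 50-base words found once in the genome in 10-kb bins (bottom), against distance from the start of Cyp2c55 in kb. The 3 shaded stretches, of 428, 257 and 213 kb, hold no peak of either list and cover most of the genes, and all triangles, which mark a CTCF motif, lie outside the span of the genes.

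Fold enrichment, the authors' ratio of reads at the summit to the local background, was compared only within a list. For CTCF the median of the window was 5.91 (range 2.88 to 25.9, 95% interval of the median from order statistics 3.85 to 15.2), beside 6.05 for the list. For Rad21 it was 4.74 (2.15 to 22.8, interval 3.75 to 6.47), beside 4.93. Both list medians lay within these intervals, which treat neighbouring peaks as independent and hold no spread between mice. The 14 CAC peaks of the CTCF list had a median of 7.56, and the 3 Lone CTCF peaks stood at 2.89, 3.85 and 8.21. The 9 CNC sites had a median Rad21 fold enrichment of 3.75, and 7 of them were above 3.48, the median of all CNC sites.

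**Figure D2:**
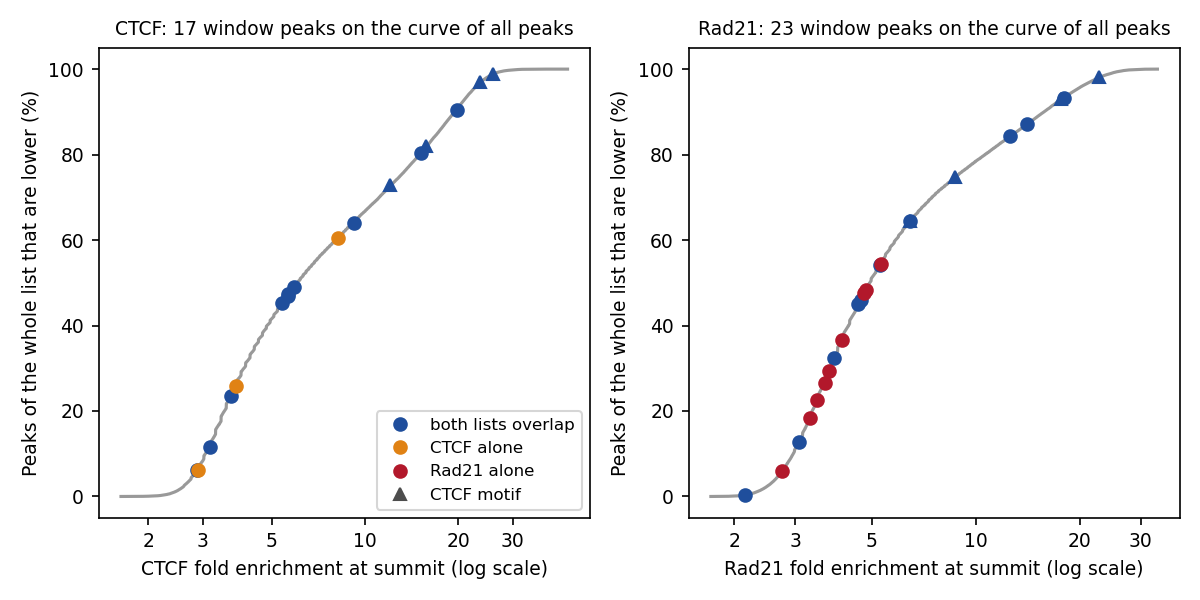
Each of the 17 CTCF peaks (left) and 23 Rad21 peaks (right) of the window, drawn on the curve of its whole list, with fold enrichment at the summit on a log axis and the percent of the list that is lower on the other. The CNC sites lie between 5.92% and 54.4% of the Rad21 list, whereas CAC sites run from the bottom to the top of both lists.

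The 3 strongest CTCF peaks of the window lay at its Cyp2c55 end. In an intron of Tbc1d12 (38990155 to 38990651) the CTCF fold enrichment was 25.9, which exceeded 98.8% of the CTCF list, and that of Rad21 was 8.71, which exceeded 74.7% of the Rad21 list. The intergenic peak 24.9 kb upstream of Cyp2c55 (39056401 to 39056863) had 23.6 for CTCF and 22.8 for Rad21, the latter higher than 98.1% of its list. It was the strongest Rad21 peak of the window, and its CTCF and Rad21 summits were 34 bp apart. The last of the 3 was inside Cyp2c55, in an intron 20.7 kb downstream of the start (39102005 to 39102446), with 19.8 for CTCF and 18.0 for Rad21, each higher than 90% of its list (90.5% and 93.3%). Cyp2c55 codes for an epoxygenase and hydroxylase of arachidonic acid that is induced by drugs through nuclear receptors and is also found outside the liver. Beyond this peak, towards Cyp2c65, the first long stretch without peaks began.

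Cyp2c55 also had Rad21 without CTCF at its 5′ end. A CNC site at 39079770 to 39080103, with a Rad21 fold enrichment of 4.81 and a −log10 q of 10.4, had its summit 1.59 kb upstream of the start, and the nearest CTCF peak was 21901 bp away. A weaker CNC site lay 8.51 kb upstream (fold enrichment 3.32).

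Cyp2c29, which codes for an enzyme that makes epoxides of arachidonic acid and is a classic target of phenobarbital, held 3 of the window's peaks within 5 kb, none of which overlapped another. A Lone CTCF peak (39359144 to 39359366, fold enrichment 3.85, higher than 25.9% of the list) had its summit 2.30 kb upstream of the later of 2 annotated coding starts (39361601), in an intron of the form that begins at the earlier one (39315441). A CNC site (39361528 to 39361804, Rad21 fold enrichment 3.75) covered the later start, with its summit 69 bp downstream in a coding exon. A second CNC site (39363537 to 39364127, 4.74) lay in an intron 2.30 kb downstream. The CTCF peak was separated from the nearer Rad21 peak by 2161 bp. The earlier start had no peak within 5 kb. The promoter of the later start, whose downstream end overlaps the first of these CNC sites, is shown as given by RefSeq (GRCm38.p6), whose 300 bases match mm9 exactly at chr19:39361325-39361624, plus strand, with no capitals because it held neither TTCNNNGAA nor CAAAGTCCA, words described further on.
Cyp2c29 promoter: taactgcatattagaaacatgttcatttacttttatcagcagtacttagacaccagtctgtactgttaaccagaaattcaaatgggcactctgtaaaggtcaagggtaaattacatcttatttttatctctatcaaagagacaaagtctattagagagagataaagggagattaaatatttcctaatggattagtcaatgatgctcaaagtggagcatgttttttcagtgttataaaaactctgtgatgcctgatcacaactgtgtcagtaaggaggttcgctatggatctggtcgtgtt

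A further CNC site stood alone between Cyp2c38 and Cyp2c39, of which the latter codes for a retinoic acid hydroxylase. It was intergenic (39576637 to 39576952), 8.56 kb upstream of Cyp2c39, with a Rad21 fold enrichment of 5.31, the highest of the 9 CNC sites and above 54.4% of the Rad21 list. The nearest CTCF peak was 217270 bp away. Within 150 bp of its summit it held a word of the form TTCNNNGAA, a palindrome bound by STAT5, the factor that growth hormone activates in liver. Such a word was in 1 of the window's 9 CNC sites (11.1%), near the 9.54% of 17225 CNC sites searched on all autosomes but 1. The 300 bases around the summit are shown because no other peak of either list stood between Cyp2c29 and the site beyond Cyp2c69, with the word in capitals.
Upstream of Cyp2c39, chr19:39576646-39576945, plus strand: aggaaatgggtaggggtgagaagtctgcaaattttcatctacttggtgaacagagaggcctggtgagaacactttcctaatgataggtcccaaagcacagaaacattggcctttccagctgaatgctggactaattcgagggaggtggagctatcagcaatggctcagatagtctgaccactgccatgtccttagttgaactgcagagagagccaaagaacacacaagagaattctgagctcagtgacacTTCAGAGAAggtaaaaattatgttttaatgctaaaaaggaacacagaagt

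At the other end of this stretch 2 CAC sites stood before Cyp2c37, an enzyme that hydroxylates arachidonic acid. The first (40004556 to 40005058) was intergenic, 43.5 kb upstream of Cyp2c69, with fold enrichments of 15.2 for CTCF and 14.1 for Rad21. The second (40048669 to 40048977) was 18.1 kb upstream of Cyp2c37, with 9.21 and 12.6. The first ranked higher than the second in both lists, above 80.4% against 64.1% of CTCF peaks and above 87.2% against 84.3% of Rad21 peaks. They were 43.6 kb apart, with no peak between them. Neither list had a peak from there to an intron of Cyp2c70, a stretch of 193 kb that holds Cyp2c37, Cyp2c54 and Cyp2c50.

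Cyp2c70, the enzyme that makes muricholic acids from chenodeoxycholic acid and so sets the rodent bile acid pool apart, had more peaks in its body than any other Cyp2c gene of the window, 2 of CTCF and 4 of Rad21, and another CTCF peak began just upstream. A CAC site in an intron 18.9 kb downstream of the start (40242766 to 40243074) had fold enrichments of 5.91 for CTCF and 6.47 for Rad21, with summits 2 bp apart, and a CNC site (3.48) lay 104 bp from it. A Lone CTCF peak of 8.21 stood in an intron 6.59 kb downstream, with the nearest Rad21 peak 5569 bp away. A CNC site of 4.10 lay 710 bp downstream of the start. The start itself carried a CAC site whose CTCF peak (40261842 to 40262157, fold enrichment 5.63) began 66 bp upstream of it and whose Rad21 peak (40261596 to 40262129, 3.89) covered it. No motif was near this site, where the best match scored 6.29 bits.

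The Cyp2c70 promoter held the word CAAAGTCCA, the core bound by HNF4, a nuclear receptor that drives many liver genes. The Rad21 peak of this CAC site covered the whole promoter. Its CTCF peak covered only the upstream part and left out the word. Promoters were taken as 250 bases before to 50 after each start in RefSeq (GRCm38.p6), where 9 of the 10 members were found, and both strands were searched. The word was in 3 of these 9 promoters (Cyp2c40, Cyp2c67 and Cyp2c70), in 3 of 4 promoters of the other Cyp2c genes of the cluster (Cyp2c65, Cyp2c68 and Cyp2c69), and in 0.475% of 32851 promoters. Promoters of near-identical copies are not independent: those of Cyp2c40 and Cyp2c69, for example, were 98.9% identical. TTCNNNGAA was in 0 of the 9, beside 8.3% of all promoters, which says only that these letters are not in those 300 bases. The promoter matches mm9 at chr19:40261727-40262026, minus strand, and the HNF4 word is in capitals.
Cyp2c70 promoter: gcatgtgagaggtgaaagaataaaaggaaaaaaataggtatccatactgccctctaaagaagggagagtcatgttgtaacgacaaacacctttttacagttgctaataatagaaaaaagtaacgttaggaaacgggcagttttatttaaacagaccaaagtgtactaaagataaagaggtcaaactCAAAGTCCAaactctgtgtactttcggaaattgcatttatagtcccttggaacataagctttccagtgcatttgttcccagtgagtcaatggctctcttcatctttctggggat

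To the right of the genes, the 2 CAC sites with a motif lay in Pdlim1, which codes for a PDZ and LIM domain protein of the cytoskeleton. The first (40299845 to 40300357) had fold enrichments of 15.8 for CTCF and 17.7 for Rad21 and the highest motif score of the window's peaks, 21.4 bits. The second (40306200 to 40306825) had 12.1 and 6.45, and its motif scored 15.2 bits. At both, the summits of the 2 factors were 16 bp apart. The remaining 6 CTCF peaks of the window were between 2.88 and 5.65, below the list median of 6.05, and comprised 5 CAC and 1 Lone CTCF. A further 8 Rad21 peaks, among them the weaker CNC site upstream of Cyp2c55 given above, were between 2.15 and 5.28, with 5 CAC and 3 CNC. They lay at the start of Hells, upstream of Cyp2c55, in or beside Pdlim1 and between it and Cyp2c70.

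Measured from the genes, 3 of 10 members (Cyp2c55, Cyp2c29 and Cyp2c70) had a start within 5 kb of a peak of either list, beside 67.9% of 21410 autosomal protein-coding genes. For CTCF it was 2 of 10 (Cyp2c29 and Cyp2c70), beside 65.6%, and for Rad21 3 of 10, beside 64.2%. The other 7 starts were farther from both lists. Cyp2c39 came next, 8.40 kb from Rad21 but 226 kb from CTCF, followed by Cyp2c37 with both 17.9 kb away. For Cyp2c38 the distances were 39.1 kb to Rad21 and 178 kb to CTCF, for Cyp2c50 78.2 and 78.6 kb, and for Cyp2c54 94.1 and 94.5 kb. Cyp2c40, whose product hydroxylates arachidonic acid at an internal position, was 117 kb from a peak of either list. Cyp2c67 was the most remote, 147 kb from Rad21 and 281 kb from CTCF. A second Cyp2c39 start that RefSeq places at a position matching 39421836 was 57.7 kb from Rad21 and 62.5 kb from CTCF.

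The other Cyp2c genes of the cluster were likewise far from peaks. Distances to CTCF were 33.1 kb for Cyp2c65, 85.9 kb for Cyp2c66, 189 kb for Cyp2c68 and 43.3 kb for Cyp2c69, and those to Rad21 were 33.0, 85.8, 189 and 43.3 kb in the same order. Cyp2c44, the one gene of the family outside the window (44079512 to 44103737), had a CTCF peak of 3.23 and a Rad21 peak of 4.60 in its body, 7.71 and 7.24 kb from its start.

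**Figure D3:**
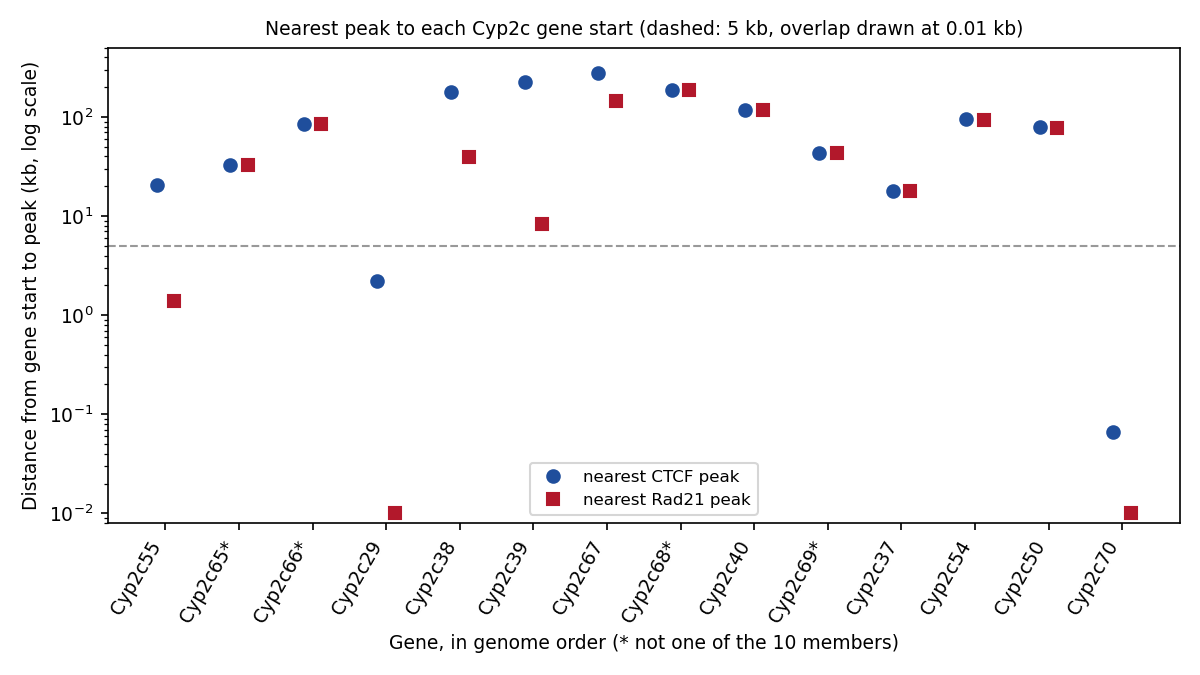
Distance in kb, on a log axis, from the nearest annotated coding start of each of the 14 Cyp2c genes of the window to the edge of the nearest CTCF peak (circles) and Rad21 peak (squares), in genome order. Cyp2c29 and Cyp2c70 have both lists below the dashed line at 5 kb, Cyp2c55 only Rad21, and the genes from Cyp2c67 to Cyp2c69 have both lists between 43.3 and 281 kb.

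The stretches without a peak of either list were long. The longest, 428 kb from 39576953 to 40004534, holds Cyp2c39, Cyp2c67, Cyp2c68, Cyp2c40 and Cyp2c69 whole. Of 83600 stretches between neighbouring peaks on the autosomes, with a median of 8.83 kb, 646 (0.773%) were at least as long. The next were 257 kb across Cyp2c65 and Cyp2c66 (1.48% as long), 213 kb across Cyp2c38 (1.87%) and the 193 kb across Cyp2c37, Cyp2c54 and Cyp2c50 (2.11%). For CTCF alone the stretches of 428 and 213 kb joined into 645 kb, from Cyp2c29 to the site beyond Cyp2c69, with 378 of 66991 autosomal stretches (0.564%) at least as long. On chromosome 19 it ranked 7 by length among stretches between CTCF peaks. None of these stretches held an unknown base, so no assembly gap lies in them.

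Much of this sequence is not unique, which matters because the authors kept only reads placed uniquely. Unique words and copies were measured in mm9, and the genomes of these outbred mice were not examined. In the window, 73.3% of 50-base words occurred once in the genome, beside 91.8% on chromosome 19. The share was 95.5% in the left flank, 69.9% from the first to the last gene, 66.0% in the 645 kb without CTCF and 62.4% in the 428 kb without either factor. With words of 100 bases these last 2 values were 83.8% and 83.3%, and with words of 36 bases 54.8% and 49.9%. Every peak of the window lay in sequence of which at least 92.4% was unique, as did most peaks elsewhere on chromosome 19, where 96.0% of CTCF and 98.4% of Rad21 peaks had 90% or more.

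By gene, the body of Cyp2c68 was the least unique (52.6%), followed by Cyp2c40 (55.7%), Cyp2c66 (57.2%), Cyp2c69 (61.7%) and Cyp2c67 (65.3%). Cyp2c55 (94.0%) and Cyp2c70 (93.1%), which carry CAC sites, were the most unique of the 14 in the window, and Cyp2c37 (89.2%) and Cyp2c65 (88.4%), which have no peak in their bodies, were close behind. Within 5 kb of the start, the share was 98.5% at the later start of Cyp2c29 but 65.7% at its earlier one. It was 96.7% at Cyp2c39 and 86.1% at Cyp2c67, neither of which had a peak within 5 kb. At the 2 annotated starts of Cyp2c40 it was 62.7% and 62.8%.

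Copies were searched for only within the window, by aligning it with itself, and copies elsewhere in the genome were not searched for. Of the window, 26.1% lay in alignments of at least 1000 bp at 95% identity or more with another part, as did 60.0% of the 428 kb and 46.8% of the 645 kb stretch. At 90% identity or more these shares were 41.8%, 79.7% and 66.4%, and at 98% they were 4.79%, 4.44% and 5.99%. A long example joined 39686267 to 39699634, at Cyp2c67, with 39919991 to 39933380, at Cyp2c69, over 13.4 kb at 96.5% identity. In coding sequence Cyp2c67, Cyp2c68, Cyp2c40 and Cyp2c69 formed a close group, in which Cyp2c40 was 98.1% identical to Cyp2c68, 97.9% to Cyp2c69 and 97.7% to Cyp2c67. Cyp2c37 and Cyp2c50 shared 96.1%, Cyp2c54 and Cyp2c50 95.2%, Cyp2c65 and Cyp2c66 96.6%, and Cyp2c38 and Cyp2c39 94.2%. Cyp2c55 and Cyp2c70 had no close copy, with at most 78.9% and 75.4% identity. Over the 45 pairs of members the median was 80.3%, and 5 pairs reached 90%.

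**Figure D4:**
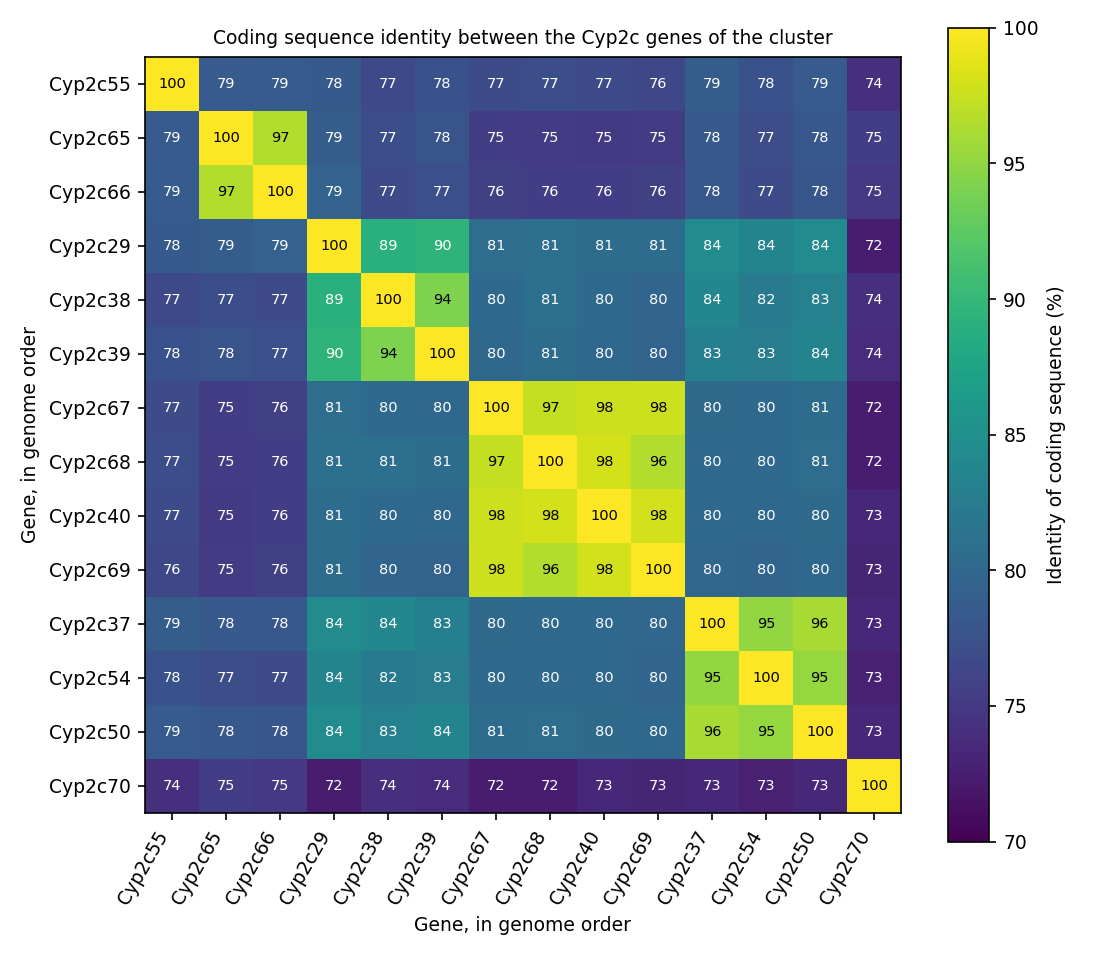
Percent identity of coding sequence between the 14 Cyp2c genes of the window, in genome order, from pairwise global alignment of the longest annotated coding sequence. Bright squares mark neighbouring near-copies, the largest being the group from Cyp2c67 to Cyp2c69, while Cyp2c55 and Cyp2c70 stand at or below 79% to every other gene.

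How alike the copies are near their starts is shown by 109 bases around the HNF4 word of 4 genes that have no peak near them. Capitals mark the bases that differ from Cyp2c40.
Cyp2c40, chr19:39887291-39887399, minus strand: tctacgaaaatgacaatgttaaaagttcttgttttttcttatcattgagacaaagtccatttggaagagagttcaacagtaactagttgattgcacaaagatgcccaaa
Cyp2c69, chr19:39961276-39961384, minus strand: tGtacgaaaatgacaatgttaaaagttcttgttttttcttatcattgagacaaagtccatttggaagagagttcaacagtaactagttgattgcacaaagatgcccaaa
Cyp2c68, chr19:39815610-39815718, minus strand: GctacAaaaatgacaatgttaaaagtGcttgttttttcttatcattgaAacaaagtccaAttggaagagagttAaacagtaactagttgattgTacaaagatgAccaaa
Cyp2c67, chr19:39723599-39723707, minus strand: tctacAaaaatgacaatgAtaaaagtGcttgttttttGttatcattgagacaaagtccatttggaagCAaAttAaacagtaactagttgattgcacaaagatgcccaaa
Cyp2c69 differed at 1 position, and Cyp2c68 and Cyp2c67 at 8 each. The word itself was the same in all 4, as the search required, and the 109 bases around the word of Cyp2c70 differed from those of Cyp2c40 at 76 positions.

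Other long stretches of chromosome 19 without CTCF were mostly unique. There were 35 of at least 190 kb outside the cluster, with a median of 91.8% unique words, the same as for the chromosome, and a lowest value of 54.2%. Of the 6 longer than 645 kb, 5 were 83.5% to 93.5% unique and the other was 54.2% unique. CTCF summits and unique words were also set side by side in bins of 10 kb. Outside the window, a CTCF summit was in 5.22% of bins with under 70% unique words and in 33.3% of those with 95% or more. Of the 119 bins that touch the span from the first to the last gene, 70 were under 80% unique, and 2 of them had a CTCF summit (2.86%), beside 6.11% of such bins elsewhere. In the 49 bins with 80% or more, 5 had one (10.2%), beside 31.2% of 5100 such bins elsewhere. These bins were not alike, since the median bin was 89.6% unique in the cluster and 97.5% unique elsewhere. Per Mb of unique words there were 7.27 CTCF peaks among the genes and 42.0 on the chromosome. What part of this came from reads that could not be placed was not tested.

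**Figure D5:**
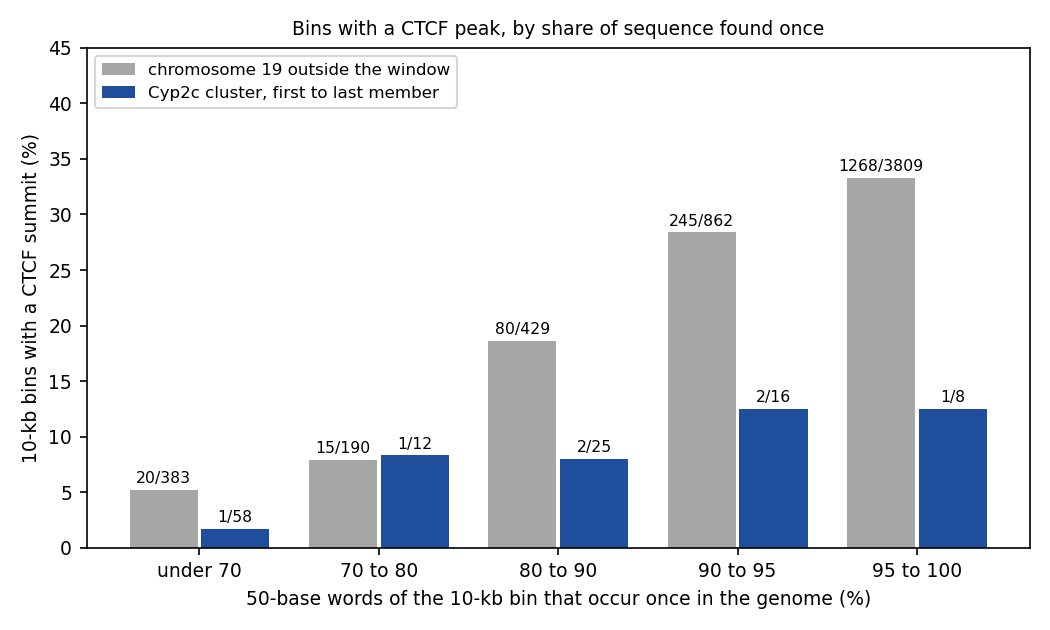
Percent of 10-kb bins with a CTCF summit, by the percent of the bin's 50-base words that occur once in the genome, for chromosome 19 outside the window (grey) and for bins from the first to the last gene of the cluster (blue), with the number of bins with a summit over all bins above each bar. The blue bars stay at or below 12.5% (1 of 8 bins in the last class), while the grey bars rise from 5.22% to 33.3%.

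Searched base by base, the whole window held 24 matches at 14.3 bits or more (17.4 per Mb), beside 47.9 per Mb on chromosome 19, whose length here includes unknown bases. The 645 kb without CTCF held 1 of them, an intergenic one of 14.4 bits upstream of Cyp2c67. This stretch was chosen for having no CTCF peak, so its count is a description. In 86 stretches of the same length that tile the rest of chromosome 19, the count ran from 6 to 102, with a median of 24, but these had a median of 22 CTCF peaks and only 6 of them had none. G+C content was 38.3% in the stretch against a median of 42.3% over the 86, of which 7 were as low. Unique words were 66.0% against a median of 94.4%, with 2 as low. The part of either in the count was not tested.

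Of the 24 matches, 5 were in a CTCF peak (20.8%), beside 32.8% of those on chromosome 19. The window had 3 matches of 20 bits or more, of which 1 was in a CTCF peak, that in Pdlim1. On chromosome 19 it was 70.5% of 305 such matches, and 3 matches are too few to set a share against it. The others are shown because they score high and lie in no CTCF peak.
Between Cyp2c65 and Cyp2c66, 23.4 bits, chr19:39173438-39173497, minus strand: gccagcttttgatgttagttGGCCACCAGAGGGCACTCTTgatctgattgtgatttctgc
Upstream of Pdlim1, 21.0 bits, chr19:40352576-40352635, minus strand: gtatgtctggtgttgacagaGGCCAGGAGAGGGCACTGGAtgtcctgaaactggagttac
The match upstream of Pdlim1 was close to a weak CAC site, whose CTCF peak began at 40352953 and whose Rad21 peak began at 40352957. Both matches lay in sequence in which 100% of the words around them were unique. The one between Cyp2c65 and Cyp2c66 scored higher than the motif at any peak of the window, and it stood 14.9 kb upstream of Cyp2c66 within the stretch of 257 kb without a peak.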

How the data were processed

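CTCF and Rad21 ChIP-seq of female mouse liver was taken from 1 peak list per antibody. Reads were aligned by the authors to the mm9 genome using Bowtie2, leaving out reads not placed uniquely. The libraries of an antibody were pooled, peaks were called with MACS2, and the authors removed blacklisted peaks and those made of identical reads only. As deposited, each peak has a fold enrichment (a ratio over local background at the summit), a −log10 q, a summit offset and a whole-number score, which was not used. Read counts are not in the lists, so depth was not used here.

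Peaks of both lists were CAC where they shared at least 1 bp. For peaks that differed between the sexes, the authors instead counted the individual libraries with an overlapping peak, so classes here can differ from theirs. Starts were those of coding transcripts, and other annotation was GENCODE on the same build. A CTCF matrix of 20 positions was learned from 1000 peaks of fold enrichment 23.3 or more on all even-numbered autosomes but 1. A word was unique where its 50 bases occurred once in mm9 on either strand. Copies were found with blastn 2.17.0 and coding identity with Biopython 1.88. The other tools were numpy 2.4.6, pandas 2.3.3 and pysam 0.24.0. Overlap, motif and word searches were tested on simulated sequence. Intervals are at 95%, by Wilson's method for shares and from order statistics for medians. Promoter sequences are from RefSeq (GRCm38.p6), placed in mm9 by exact match.

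Named peaks were those with a motif, the 5 strongest of each list, those in a member or within 5 kb of its start, those beside the 3 longest stretches without a peak and the site upstream of Cyp2c37. Members, lists and searches were chosen with earlier results of these data known. Alternatives changed the peak thresholds, the overlap, the window, the motif threshold and search width, the word length and the distance to a start.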

Additional observations from a re-analysis of the deposited data

How the results depend on the processing

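The listed peaks, and so the counts, depended on the threshold and the window. With no extension the window had 6 CTCF and 10 Rad21 peaks, 4 CAC and 5 CNC sites, 0 CTCF peaks with a motif and 69.9% unique words. With 200 kb on each side there were 30 CTCF peaks, 23 of them CAC and 11 with a motif, and 75.9% unique words. Of peaks with a −log10 q of at least 10 there were 15 of Rad21, 5 of them CNC. Of those with a fold enrichment of at least 5 there were 10 of Rad21, with a median fold enrichment of 10.7, 9 CAC sites and 1 CNC site. At this threshold the peaks at Cyp2c29 were lost, and the longest stretch without a peak was 474094 bp, from 39102543 to 39576636. The stretch of 428 kb kept its length but was no longer the longest. At the same threshold 1 member start had a peak within 5 kb, so the CNC sites and the start sites of Cyp2c55 and Cyp2c29 rest on weaker peaks. The motif threshold passed by 5% of windows gave 7 CTCF peaks with a motif. Unique words were 63.7% of the window at 36 bases and 87.4% at 100 bases. Within 20 kb, 5 member starts had a peak. No share over all genes is given for this count or for the 1 start at the stricter threshold, so neither can be compared. The median CTCF fold enrichment rose from 5.91 to 10.7 under each of the stricter peak thresholds. The other alternatives moved no value by more than 1.5 times. No paired analysis was possible because the peaks were called on pooled libraries, which also left no replicate to leave out.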
